A study of Arabidopsis thaliana with 11 samples.

Results

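The genes described here are those of Arabidopsis whose symbol is LCR, PDF or SCRL followed by a number. They were taken as every probe set that the array annotation ties to 1 gene with such a symbol, which gave 15 of the 13513 probe sets that name 1 gene. Of these, 8 carry an LCR symbol, 7 a PDF symbol and 0 an SCRL symbol. The symbol PDF covers unrelated kinds of gene. PDF1A and PDF1B are peptide deformylases, enzymes that remove the formyl group from the start of new organelle proteins, so they meet the rule without being defensin-like and are given separately. That left 13 defensin-like genes, 8 LCR and 5 PDF, and 9 of the 13 carry both an LCR and a PDF name in the RefSeq gene table (assembly TAIR10.1). RefSeq has 122 genes with a symbol of this form, 28 of them SCRL, and those without a probe set of their own in the annotation used were not analysed here.

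Plant defensins are small secreted peptides whose fold is held together by disulphide bonds between conserved cysteines, and several of them inhibit the growth of fungi. LCR stands for low-molecular-weight cysteine-rich, a wider group of Arabidopsis peptides of this kind, and SCRL genes are named for their likeness to SCR, the pollen ligand of self-incompatibility in the cabbage family. PDF1.2 is widely used as a marker of defence signalling through jasmonate and ethylene, and other defensin-like genes are known for expression in flowers and seeds.

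RNA of Columbia-0 plants, the common laboratory accession, was hybridised to 11 ATH1 arrays of Affymetrix. Rosette leaf was taken at 15 days after germination (3 arrays), and flowers with unopened buds (4 arrays) and stem (4 arrays) at 29 days. All plants had a 16 h photoperiod at 125 µmol per m2 per s, and day and night temperatures of 25 and 20 °C. The titles carry a code, GC or GH, whose meaning the labels do not state. The 2 leaf GH arrays are described as greenhouse grown and the other 9, flower GH and stem GH included, as grown in a controlled system, so that leaf has 1 GC and 2 GH arrays and flower and stem have 2 of each. Age and tissue cannot be told apart between leaf and the other organs. The labels do not say that arrays of a group came from separate plants, so p-values measure only the spread between these arrays. In whole organs, fewer cells of a type and less RNA per cell cannot be told apart.

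A value is the MAS5 signal, a summary of a probe set's brightness on a linear scale. Signals under 28.1, the 40th percentile of all values, are called dim here, and the share of probe sets above that limit was 57.6 to 58.4% on leaf, 62.5 to 64.6% on flower and 57.5 to 58.8% on stem arrays. Of 3 leaf photosynthesis markers, 3 were lower in flower and 3 lower in stem than in leaf. Of 3 stem wall markers, 3 were higher in stem than in leaf, with a summed signal of 735.4 to 1637 on stem arrays, 71.4 to 92.2 on leaf and 78.2 to 112.3 on flower arrays. Of 5 anther and pollen markers, 5 were higher in flower than in leaf and 4 higher in flower than in stem, with a summed signal of 1871 to 2047 on flower, 138.5 to 190.1 on leaf and 604.5 to 931.9 on stem arrays. The exception was ACT11, an actin that the stem also expresses, with 673.9 ± 143 (SD, n = 4) in stem and 293.5 ± 60.7 (SD, n = 4) in flower. The other 4 lay above the dim limit in flower alone, and IRX15, a stem wall marker, in stem alone, so these had to differ once tested. Of all probe sets tested, 35.7% differed between flower and leaf, 39.6% between stem and leaf and 40.9% between flower and stem. The 1 maturing seed marker measured, AT3G15670, was dim on every array at 0.617 to 2.53. The ratio of the 3′ to the 5′ actin control, a measure of RNA quality, was 0.781 to 1.21 on leaf, 1.83 to 2.90 on flower and 1.22 to 1.37 on 3 of the stem arrays, and 19.6 on stem GH 1. Its part in the organ differences was not tested. Results that rest on stem are given without stem GH 1 where they change.

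Only 6 of the 13 defensin-like genes lay above the dim limit on 3 or more arrays and entered the tests, against 63.5% of all probe sets that name 1 gene. These 6 fell into 3 patterns. PDF1.2 and PDF1.2b were measured above the limit in leaf alone, LCR66 and LCR72 in flower alone, and LCR69 and LCR68 in all 3 organs. The other 7 were dim, 6 of them on every array.

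**Figure D1:**
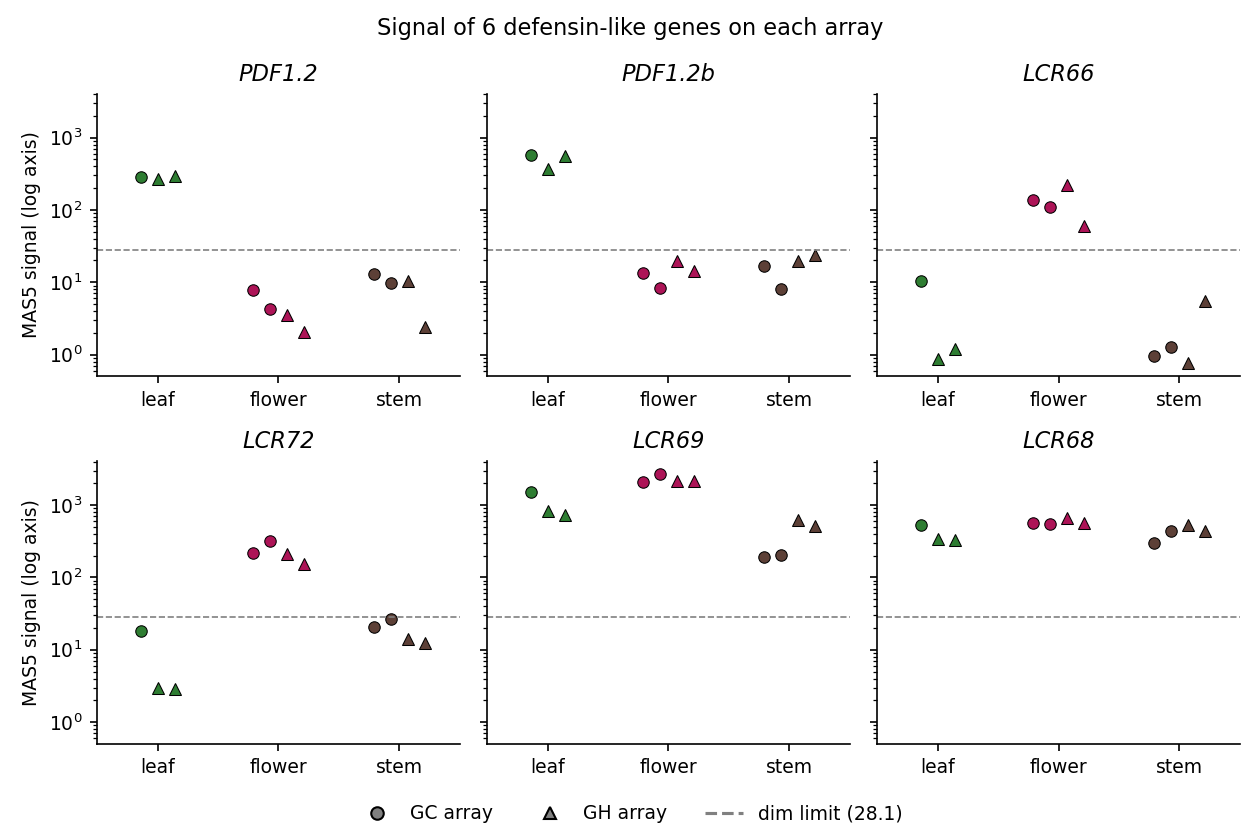
MAS5 signal (log axis) of PDF1.2, PDF1.2b, LCR66, LCR72, LCR69 and LCR68 on each of the 11 arrays, by tissue. Circles are GC arrays, triangles are GH arrays, and the dashed line is the dim limit of 28.1. PDF1.2 and PDF1.2b lie above the line on the 3 leaf arrays only, LCR66 and LCR72 on the 4 flower arrays only, and LCR69 and LCR68 on all 11.

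PDF1.2 (AT5G44420, also PDF1.2a and LCR77) was a leaf gene in these arrays. The 3 leaf signals were 285.3 (GC 1), 268.7 (GH 1) and 298.0 (GH 2). On the flower arrays it was 7.76 and 4.25 (GC 1 and 2) and 3.47 and 2.06 (GH 1 and 2), and on the stem arrays 13.0, 9.74, 10.3 and 2.37 in the same order. The leaf arrays differed by little from one another, at 284 ± 14.7 (SD, n = 3), and lay far above every flower and stem array, all of which were dim. The leaf mean was at least 10.1-fold higher than flower and at least 10.1-fold higher than stem. The bound sets the dim organ at the limit or at its own value if higher. For this and later bounds, means were taken over log2 signals. In the limma model, with Benjamini-Hochberg adjustment, the adjusted p was 6.8e-06 for flower against leaf and 2.5e-05 for stem against leaf.

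PDF1.2b (AT2G26020) is a near-identical copy of PDF1.2 encoded on another chromosome. Its probe set is of the type whose probes may also match other transcripts, so the share of its signal that comes from PDF1.2 or from PDF1.2c is uncertain, and the pair may not be separate measurements. Its signal was 574.6, 365.3 and 551.2 on leaf GC 1, GH 1 and GH 2. On the flower arrays it ran from 8.20 to 20.0 and on the stem arrays from 7.96 to 24.0. Leaf, at 497 ± 115 (SD, n = 3), again stood clear of the other organs, which were dim on all 8 of their arrays. The leaf mean was at least 17.3-fold higher than each, with limma adjusted p-values of 1.7e-06 against flower and 2.7e-06 against stem. Flower and stem were both dim for both genes, so no fold is given between them. Both genes passed the filter only through leaf, so they had to differ between organs once they were tested.

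LCR66 (AT1G61070, also PDF2.4) and LCR72 (AT2G02140, also PDF2.6) belong to the PDF2 group of defensins by their other names. LCR66 had signals of 137.6 and 111.1 on flower GC 1 and 2 and of 223.8 and 59.2 on flower GH 1 and 2. It was 10.3, 0.872 and 1.21 on leaf GC 1, GH 1 and GH 2, and 0.945, 1.27, 0.756 and 5.47 on stem GC 1, GC 2, GH 1 and GH 2. The flower arrays varied among themselves, at 133 ± 68.8 (SD, n = 4), with GH arrays as the highest and the lowest, and none came near the leaf or stem values. The flower mean was at least 4.25-fold higher than leaf and than stem, with limma adjusted p-values of 0.0013 and 3.2e-04.

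LCR72 had signals of 215.4, 317.8, 208 and 152.9 on flower GC 1, GC 2, GH 1 and GH 2. It was 18.0, 2.94 and 2.90 on the leaf arrays and 20.9, 26.6, 13.95 and 12.2 on the stem arrays, in the order used above. Stem GC 2 came closest to the dim limit, and no leaf or stem array passed it. The flower signals averaged 223.5 ± 68.8 (SD, n = 4). By the bound defined above, flower was at least 7.69-fold higher than each of the other organs. The limma adjusted p-values were 3.1e-06 against leaf and 2.1e-05 against stem. The model also called LCR72 higher in stem than in leaf (adjusted p = 0.0109), but with both organs dim on every array no fold is given, and the call was lost when values were floored at the limit. LCR66 and LCR72 passed the filter only through flower and so, like the leaf pair, had to differ. Of the 5 anther and pollen markers, 4 were higher in flower than in stem, like LCR66 and LCR72, among them ATA27, a gene of the anther tapetum, at 1013 ± 77.5 (SD, n = 4) in flower and dim on every leaf and stem array. All 4 passed the filter only through flower and so had to differ as well. The fifth, ACT11, was lower in flower than in stem (-1.20 ± 0.18, limma adjusted p = 3.0e-04), and its 673.9 makes up most of the summed stem signal of 604.5 to 931.9. Their part in the result was not tested.

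LCR69 (AT2G02100, also PDF2.2) and LCR68 (AT2G02130, also PDF2.3) were above the dim limit on all 11 arrays. They lie close together on chromosome 2, where the RefSeq order of protein-coding genes is LCR69, AT2G02103, PDF2.1 (AT2G02120, also LCR70), LCR68 and LCR72. The cluster therefore held every pattern seen among the tested defensin-like genes outside the leaf pair, and a gene dim on every array. LCR69 and LCR68 were present in all 3 organs, LCR72 was above the limit only in flower, and PDF2.1 was dim on all 11 arrays, at 1.01 to 13.9.

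LCR69 differed most between flower and stem. Its signal was 2092, 2709, 2170 and 2183 on flower GC 1, GC 2, GH 1 and GH 2. It was 1533, 826 and 740 on leaf GC 1, GH 1 and GH 2, and 191.6, 203.4, 628.9 and 511.8 on stem GC 1, GC 2, GH 1 and GH 2. The 3 organs did not overlap, with every flower array above every leaf array and every leaf array above every stem array. The means were 2288 ± 283 (SD, n = 4) in flower, 1033 ± 435 (SD, n = 3) in leaf and 383.9 ± 220.6 (SD, n = 4) in stem.

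Flower was higher than stem by 2.77 ± 0.36 on the log2 scale (SE, limma adjusted p = 1.2e-04), and this call held in all 23 alternatives run. Flower was higher than leaf by 1.26 ± 0.40 (adjusted p = 0.0268). That call was lost within the GC arrays, where leaf is 1 array (0.63, adjusted p = 0.106). Leaving out leaf GH 1 gave 1.10 (adjusted p = 0.0962), leaving out leaf GH 2 gave 1.02 (0.110) and leaving out flower GC 2 gave 1.13 (0.0673), none of them a call. Within the GH arrays the difference was 1.48 (adjusted p = 0.0019), and without leaf GC 1 it was 1.89 (adjusted p = 0.00286). Stem was lower than leaf by a log2 difference of -1.50 ± 0.40 (adjusted p = 0.0102). Within the GC arrays, again with 1 leaf array assumed to vary like the others, the stem minus leaf difference was -2.96 (adjusted p = 0.0011), within the GH arrays it was -0.46 (0.0959), and without leaf GC 1 it was -0.88 (0.0905).

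LCR68 moved far less. Its signal was 569.6, 555, 658.3 and 569.1 on flower GC 1, GC 2, GH 1 and GH 2. On leaf GC 1, GH 1 and GH 2 it was 523, 340.7 and 333.4, and on the stem arrays 302.1, 433, 523.8 and 432.6. Every flower array lay above every leaf and stem array, and leaf and stem overlapped. The means were 588 ± 47.4 (SD, n = 4) in flower, 399 ± 107 (SD, n = 3) in leaf and 422.8 ± 91.2 (SD, n = 4) in stem. Flower was higher than leaf by 0.59 ± 0.21 on the log2 scale (limma adjusted p = 0.0428), a call that was lost in 12 of 23 alternatives, with adjusted p from 0.00365 to 0.833, and within the GC arrays the difference was 0.10. Flower minus stem was 0.50 ± 0.19 (adjusted p = 0.0545), and it became a call in 6 alternatives, among them the fit without stem GH 1 (0.62, adjusted p = 0.0228). Stem minus leaf was 0.09 ± 0.21 (adjusted p = 0.753), and its sign turned without stem GH 1 (-0.04).

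The ratio of LCR69 to LCR68 on the same array does not change when all signals of an array are multiplied by 1 factor. It can change under quantile normalization. Since probe sets differ in brightness, the ratio is given as log2 after subtracting its mean over the 11 arrays, and only differences between arrays can be read. It was 0.92, 1.33, 0.76 and 0.98 on flower GC 1, GC 2, GH 1 and GH 2. It was 0.59, 0.32 and 0.19 on leaf GC 1, GH 1 and GH 2, and -1.62, -2.05, -0.70 and -0.72 on the stem arrays. The organs did not overlap. Flower exceeded stem by 2.27 (exact two-sided permutation p = 0.0286), flower exceeded leaf by 0.63 (exact p = 0.0571) and stem minus leaf was -1.64 (exact p = 0.0571), each the smallest p that these numbers of arrays allow. All 3 had an adjusted p of 0.0571 over the 3 exact tests, the smallest that these tests allow. None could therefore pass 0.05, whatever the values, and nothing is read from that. The ratio was chosen after the values were seen.

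**Figure D2:**
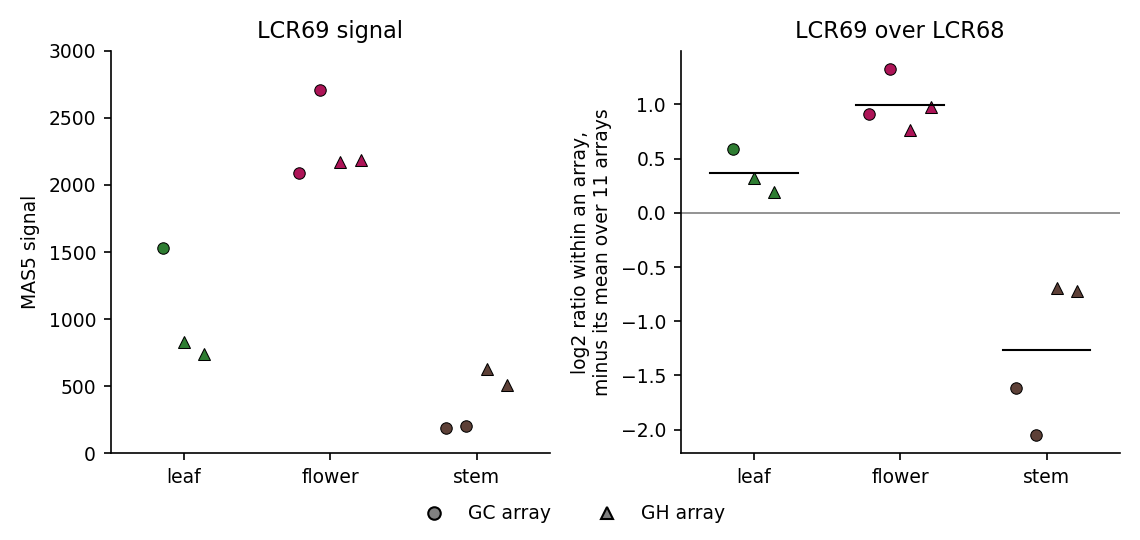
Left, MAS5 signal of LCR69 on each array by tissue (linear axis from 0). Right, the log2 ratio of LCR69 to LCR68 within each array minus its mean over 11 arrays, with bars at the tissue means of 0.37 in leaf, 1.00 in flower and -1.27 in stem; circles are GC and triangles GH arrays, and in stem both measures are higher on the GH arrays.

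Over the 6 tested defensin-like genes, flower was higher than leaf for 4 and lower for 2. Among all 15718 probe sets tested, 35.7% were called between flower and leaf, 21.3% higher in flower and 14.4% lower. Stem was lower than leaf for 3 of the 6, PDF1.2, PDF1.2b and LCR69, and higher for 1, the dim LCR72, where 39.6% of all probe sets were called, 17.9% higher and 21.6% lower. Flower was higher than stem for 3, LCR66, LCR72 and LCR69, and lower for 0 by limma's test, with 4 of 6 at an unadjusted p under 0.05, where 40.9% of all were called, 25.5% higher and 15.4% lower. With values floored at the dim limit, so that dim organs count at the limit, the median log2 difference of the 6 was 0.93 for flower minus leaf, -0.77 for stem minus leaf and 1.29 for flower minus stem, beside 0.12, -0.02 and 0.11 over all probe sets tested. Since 4 of the 6 entered through the organ in which they are high, these counts describe the genes and support nothing about them as a group.

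The balance of all calls depended on scaling. Of all calls between flower and leaf 59.7% were higher in flower as deposited, against 51.0% after quantile normalization and 49.5% after centring on the 75th percentile, and between flower and stem the shares were 62.4, 51.7 and 51.1%. The median log2 difference over all probe sets was 0.16 for flower minus leaf and 0.17 for flower minus stem as deposited, and -0.00 and 0.03, and -0.01 and 0.02, after the other scalings. The direction of each call named above for LCR66, LCR72, LCR69, PDF1.2 and PDF1.2b was the same under both scalings.

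**Figure D3:**
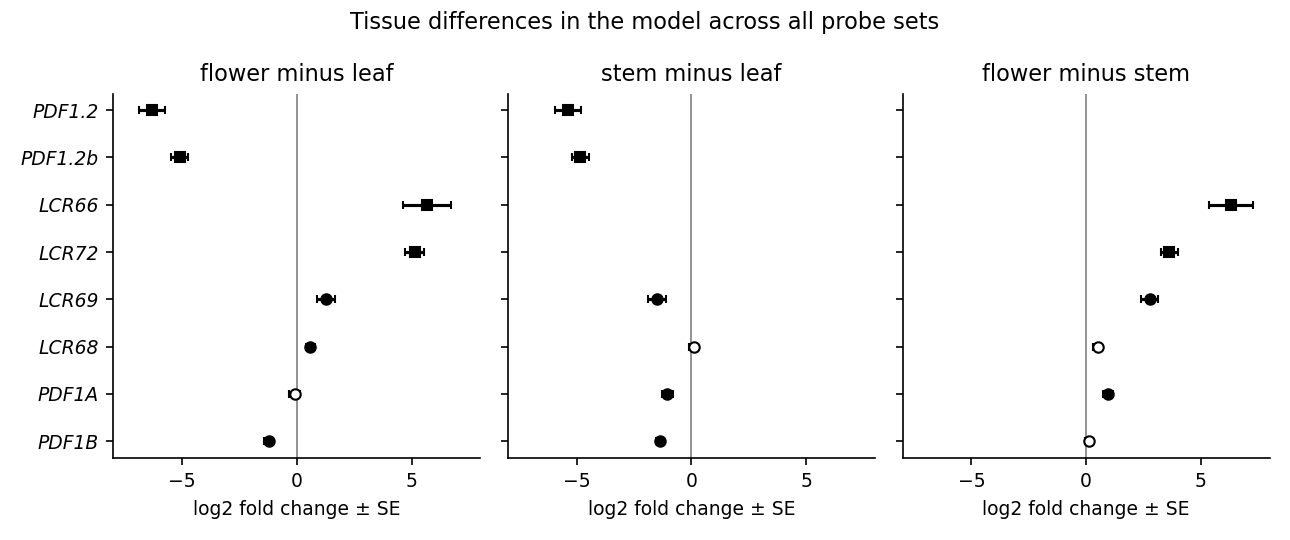
Log2 fold change with its SE for the 8 tested genes in the 3 organ comparisons (limma, adjusted for the title code). Filled points have an adjusted p under 0.05. Squares (PDF1.2, PDF1.2b, LCR66 and LCR72) set a measured organ against one dim on every array, so only their direction can be read. The plotted sizes of the squares are the fitted values, not the lower bounds given in the text. Comparisons with both organs dim are left out.

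PDF2.5 (AT5G63660, also LCR74) was the 1 untested gene with a value above the limit, 36.1 on flower GH 2. Its other flower values were 21.3, 5.18 and 11.4, the stem values were 24.0, 14.3, 12.9 and 16.7, and the leaf values were 3.53, 2.36 and 1.34. Every leaf array lay below every flower and stem array, but 10 of the 11 values lay under the limit. With no filter, limma called it higher than in leaf in both flower (adjusted p = 0.0130) and stem (adjusted p = 0.0082). No fold is given for values this low.

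The remaining 6 defensin-like genes were dim on every array. They are PDF1.4 (AT1G19610, also LCR78), PDF2.1, LCR24 (AT4G29285), LCR59 (AT4G30070), LCR67 (AT1G75830, also PDF1.1) and LCR80 (AT5G38330). Their signals ran from 0.364 to 22.0 with a median of 3.93 over all arrays, from 0.364 to 22.0 in leaf, from 0.457 to 18.5 in flower and from 0.629 to 15.7 in stem. The highest was PDF1.4 on leaf GC 1, at 22.0. With no filter, none of the 6 was called in any comparison of organs by limma, and PDF2.1 had an unadjusted p under 0.05 between flower and leaf (adjusted p = 0.0595) and between flower and stem (adjusted p = 0.0656), lower in flower each time. A dim probe set gives no level, and does not show that the gene is silent.

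**Figure D4:**
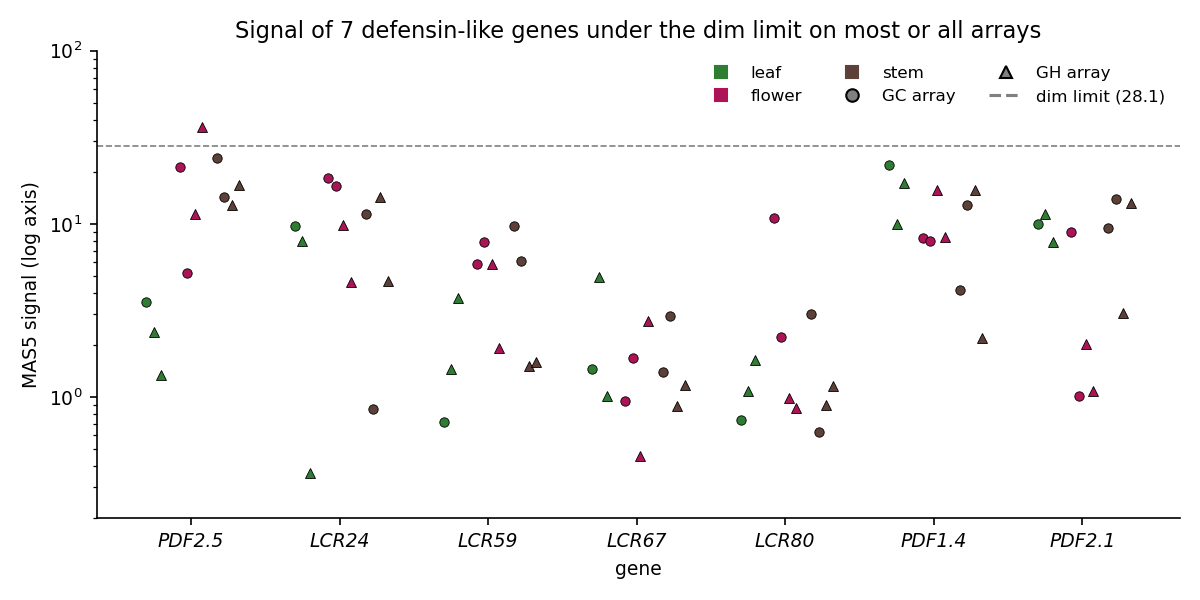
MAS5 signal (log axis) of the 7 defensin-like genes that did not enter the tests, on each array, coloured by tissue, with circles for GC and triangles for GH arrays. The dashed line is the dim limit of 28.1, and the only point above it is PDF2.5 on flower GH 2 at 36.1.

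Over the organs together, no gene of the family passed the test for the title code. By limma, 0 of the 6 tested defensin-like genes were called between GH and GC arrays, with 1, LCR72, at an unadjusted p under 0.05 (-1.18 ± 0.32, adjusted p = 0.322), and 0.00636% of all probe sets were called. The 6 differences ran from -1.18 to 0.50 on the log2 scale, with adjusted p from 0.322 to 0.959.

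LCR69 was the only member with a call when organs were taken apart, a comparison added after the values were seen, with 1 mean per organ and code. In stem the GH arrays, at 628.9 and 511.8, lay above the GC arrays, at 191.6 and 203.4, a difference of 1.52 ± 0.18 on the log2 scale (limma adjusted p = 0.0242), where 0.0827% of all probe sets were called. In leaf the 2 GH arrays, at 826 and 740, lay below the 1 GC array, at 1533, by a log2 difference of -0.97 ± 0.22 (adjusted p = 0.121), where 0.235% were called. In flower the difference was -0.13 ± 0.18 (adjusted p = 0.999), where 0.0254% were called. Of the stem wall markers, GUT2 was also called in stem, lower on the GH arrays (-1.45 ± 0.20, limma adjusted p = 0.0442). IRX15 (-0.53) and IRX15-L (-0.64) were lower there without a call. In leaf, against the 1 GC array, IRX15-L differed by 3.54, with leaf signals of 2.33 to 29.2, GUT2 by -0.10 and IRX15 by -0.30. The part of these markers in the LCR69 differences was not tested.

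The GH effect on LCR69 in stem minus that in leaf was 2.49 ± 0.28 (limma adjusted p = 0.0153), with 0.140% of all probe sets called. Leaf GC is 1 array with no spread of its own, and the model assumes that it varies like the other groups. The flower effect minus the stem effect was -1.65 ± 0.25 (adjusted p = 0.218). Over 15 alternatives the stem difference ran from 1.37 to 1.67, and 7 of them, among them leaving out either leaf GH array, either flower GC array or either stem GC array, lost its call, with adjusted p from 0.00276 to 0.0773. The difference between stem and leaf lost its call in 5 (either leaf GH array, either stem GC array, or no variance trend), with adjusted p from 0.00336 to 0.0960. Without stem GH 1, the array with the high actin ratio, the stem difference was 1.37 (adjusted p = 0.0337). Of all 11 arrays the leaf GH arrays alone are described as greenhouse grown. LCR68 had the same signs without a call, at -0.63 in leaf and 0.40 in stem. Its GH effect in stem minus that in leaf was 1.03. This difference was also positive, without a call, for LCR72 (1.77), LCR66 (4.2) and PDF1.2b (1.25), and negative for PDF1.2 (-1.18). LCR66 and LCR72 were dim on every leaf and stem array, and PDF1.2 and PDF1.2b on every stem array.

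Genes of other small cysteine-rich antimicrobial peptides, a list of 17 of which 3 were on probe sets that name 1 gene, showed both organ patterns. THI2.1, a thionin, was 2215 ± 83.4 (SD, n = 4) in flower, 27.9 ± 2.93 (SD, n = 3) in leaf and 27.2 ± 9.93 (SD, n = 4) in stem, higher in flower by 6.31 ± 0.28 than in leaf (limma adjusted p = 6.6e-08) and by 6.44 ± 0.26 than in stem. Its leaf values, 24.7 to 30.4, and stem values, 13.8 to 36.8, lay on both sides of the dim limit, so the sizes of these differences are uncertain. THI2.2, another thionin, was 225.9 ± 8.88 (SD, n = 3) in leaf and dim on every flower and stem array, at least 8.03-fold lower there. AT1G66100 was 971.5 ± 340 (SD, n = 3) in leaf and at least 33.1-fold lower, and dim on every array, in the other organs. THI2.2 and AT1G66100 passed the filter only through leaf and so had to differ. The list thus had 1 gene higher and 2 lower in flower than in leaf and 2 lower in stem than in leaf, beside 35.7 and 39.6% of all probe sets called in these comparisons, and nothing is read from these counts.

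Jasmonate and ethylene genes, through which PDF1.2 is known to respond, were nearly all without a named probe set. Of 25 listed, 1, EIN3, was measured, and it was not called in any comparison of organs. Of 12 salicylate and PR genes 1, SAG101, was measured and not called, and of 5 S-domain receptor kinases related to the receptor of SCR, 2, AT1G11330 and SD1-29, were measured and not called. SAG101 lay near the dim limit, with means of 29.8 in leaf, 19.8 in flower and 28.8 in stem, so little can be read from its lack of a call.

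Of the 2 peptide deformylases, PDF1B lay above the limit on all 11 arrays. PDF1A lay above it on every leaf and flower array and on 2 of 4 stem arrays. PDF1B (AT5G14660) was 280.1, 269.7 and 262.5 on the leaf arrays, 138.1, 133.4, 96.0 and 103 on the flower arrays and 95.2, 90.2, 110.1 and 130.7 on the stem arrays. Leaf stood above both other organs, which overlapped. Flower was lower than leaf by a log2 difference of -1.23 ± 0.19 (limma adjusted p = 3.4e-04) and stem by -1.37 ± 0.19 (adjusted p = 1.6e-04). Flower minus stem was 0.14 ± 0.17 (adjusted p = 0.544), and its sign turned with the scaling.

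PDF1A (AT1G15390) was 62.2, 71.0 and 63.5 on the leaf arrays and 57.2, 60.7, 63.3 and 62.1 on the flower arrays. On the stem arrays it was 37.7, 24.2, 39.8 and 26.4, with 2 of 4 under the limit. Leaf and flower overlapped and stem lay below both. Stem was lower than leaf by a log2 difference of -1.05 ± 0.23 (limma adjusted p = 0.0033), and flower was higher than stem by 0.96 ± 0.21 (adjusted p = 0.0035). With fewer arrays the differences stayed close to these values but missed the threshold: stem minus leaf was -1.04 within the GC arrays (adjusted p = 0.120), and flower minus stem was 0.96 within the GC arrays (0.0725) and 0.95 within the GH arrays (0.0742). Flower minus leaf was -0.09 ± 0.23 (adjusted p = 0.793).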

How the data were processed

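RNA of 3 leaf, 4 flower and 4 stem samples was measured on 11 ATH1 arrays. What the authors deposited is 1 linear intensity per probe set and array, a signal made with MAS5, per the submitters' processing notes. The MAS5 version and scaling target are not given in the sources. Gene names come from the platform annotation and were checked against RefSeq, where all 15 genes had the same symbol.

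The log2 of each deposited signal was used with no further scaling. The 64 control probe sets were left out. A probe set was tested where at least 3 of 11 arrays lay above the dim limit (28.1, the 40th percentile of all values), which left 15718. Each model was fitted on the whole table by lmFit and eBayes, with the trend option, of limma 3.58.1 (R 4.3.3). P-values were adjusted by Benjamini-Hochberg over all tested probe sets, and an adjusted p under 0.05 is a call. Organ comparisons used the title code as a covariate, and the comparison of GH with GC used tissue. The script was run on simulated data with independent normal spread and few organ differences, so that run does not cover data like these. Alternatives were other scalings, filters, treatments of low values, variance models and covariates, and leaving out each array.

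All members above the limit on 3 or more arrays are named with values, and from a gene list at most the 4 with the lowest adjusted p. The members and lists were chosen with earlier results of these data known. Precision is limited by how few arrays there are.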

Additional observations from a re-analysis of the deposited data

Results flagged for a closer look

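LCR69 stood apart on flower GC 2, where its signal was 2709 against 2092 to 2183 on the other 3 flower arrays. LCR68 stood apart on flower GH 1, at 658.3 against 555 to 569.6. In each case the gap to the nearest array, as a share of the whole range (0.853 and 0.859), passed Dixon's critical value for 4 values. There were 11 such groups of 4 examined and 2 far arrays, and chance alone marks about 1 group in 20.

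The GH effect on LCR69 in stem minus that in leaf was 2.49 on the log2 scale (limma adjusted p = 0.0153). Leaf GC is 1 array with no spread of its own, so the p takes its spread from the other groups.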

How the results depend on the processing

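Of 17 called organ tests of named genes, 1 (LCR72, stem against leaf) had both organs dim. Of the other 16, 11 kept the call in every alternative run: leaf against flower and stem for PDF1.2, PDF1.2b and PDF1B, flower against leaf and stem for LCR66 and LCR72, and flower against stem for LCR69. PDF1.2, PDF1.2b, LCR66 and LCR72 passed the filter only through the organ in which they are high and had to differ. That their calls were kept therefore adds no support. Leaf is 1 array in every fit within the GC arrays. Within the GC arrays, 2 defensin-like genes were higher in flower than leaf, and all calls fell from 5617 to 2612 for flower against leaf, from 6222 to 3027 for stem against leaf and from 6421 to 4257 for flower against stem (2976 within the GH arrays), with fewer arrays in each fit. Leaving out each array gave 2 to 4 genes higher in flower than leaf, with 2 without leaf GH 1, leaf GH 2 or flower GC 2. The 1 gene higher in stem than leaf, LCR72, became 0 with values floored at the limit, with only the compared organs' arrays and within the GC arrays. Leaving out each array gave 0 to 1 gene lower in flower than stem, where the 1, without stem GH 2, was PDF1.2, dim in both. For GH against GC, the 1 probe set called of all became 0 with centring, without the variance trend and with the replicate block, 9 in flower and stem only, and 0 to 13 on leaving out each array, with 13 without leaf GC 1. LCR68 stem minus leaf turned to -0.53 within the GC arrays, and to -0.0093, -0.025 and -0.042 without leaf GH 1, leaf GH 2 and stem GH 1, over a range of -0.042 to 0.43 on leaving out each array. PDF1B flower minus stem turned to -0.023 with quantile normalization, -0.0069 with centring and -0.27 within the GH arrays. The causes were not tested. PDF1A had no value with the filter at the 60th percentile.

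Equal replicate numbers gave no sign of pairs: over 10 pairs of groups the deviations correlated at -0.07 to 0.07. This check could miss a weak pairing, and the labels do not say whether arrays were paired. With the replicate block, no member's call changed, and 5491, 6067 and 6356 probe sets were called for flower against leaf, stem against leaf and flower against stem.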
